A study of Rattus norvegicus with 6 samples.

Results

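The genes described here are 10 regulators of alternative splicing in muscle and nerve cells: Rbm20, Rbm24, Mbnl1, Mbnl2, Celf1, Celf2, Rbfox2, Ptbp1, Ptbp2 and Srrm4. They were chosen by name, and 9 of the 10 matched a row each in a table of 13843 rows. No row matched Srrm4 by its current or an older symbol, and Srrm4 was not analysed here. RNA sequencing was done on neonatal rat ventricular myocytes (NRVM), primary cultures of muscle cells from the newborn rat heart, in 6 libraries. The PE group (2 libraries) received phenylephrine, an alpha-1 adrenergic agonist that makes these cells grow, with a control short hairpin. The PE+TSA group (2 libraries) received phenylephrine, TSA and the same control hairpin, and the PE+TSA+shJIP1 group (2 libraries) received phenylephrine, TSA and a hairpin against JIP1. All were treated for 3 days, so every culture had phenylephrine and a hairpin, and cultures with neither were not analysed here. The labels leave TSA unexplained. It is the common short name of trichostatin A, which blocks histone deacetylases. The labels also call the third group a JIP1 knockout, and they state neither how the hairpins were delivered nor whether replicates were grown as separate cultures, so p-values may measure technical spread only.

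Most multi-exon genes give several messenger RNAs, because regulatory proteins bind the pre-messenger RNA beside an exon and favour its inclusion or its skipping. RBM20 and RBM24 act in heart muscle, where RBM20 sets the isoform of the giant sarcomere protein titin, and mutations in it cause dilated cardiomyopathy. MBNL and CELF proteins oppose each other on many exons that switch between the fetal and the adult heart, RBFOX2 binds the motif UGCAUG, and PTBP1 represses neuronal and muscle exons in cells of other kinds. PTBP1 also makes the transcript of its neuronal paralog PTBP2 skip an exon, which exposes that transcript to decay, and SRRM4 promotes neuronal microexons. Values here are FPKM per gene, fragment counts scaled to transcript length and to the size of the library. They measure how much of each regulator's RNA was present and not which isoforms were made or how exons were spliced.

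The library PE replicate 2 was much shallower than the rest. It listed 3667 features at 0, against 1407 to 1837 in the others. From the whole-read steps of low values it had 0.0481 of the depth of PE replicate 1, in a search limited to shallower depths for this library. The other 4 libraries had 0.72 to 1.34. None of the 9 genes was at 0 in any library. Mapk8ip1, the transcript the hairpin targets, was at 3.77 and 4.39 FPKM under PE, 14.6 and 17.9 under PE+TSA and 1.8 and 3.65 under PE+TSA+shJIP1. Both hairpin libraries lay below the other 4, though replicate 2 only narrowly below PE (3.65 against 3.77). By the limma test described below, its adjusted p was 0.0852 for PE+TSA against PE. It was 0.077 for PE+TSA+shJIP1 against PE+TSA and 0.369 against PE, so Mapk8ip1 passed 0.05 in no comparison. The cardiomyocyte label was checked on 15 markers, of which 14 matched a row and none was at 0 in any library. Their summed level was 26189 and 21041 FPKM under PE, 12079 and 5823 under PE+TSA and 10868 and 5954 under PE+TSA+shJIP1. In RNA from whole cultures, fewer cells of a type and less RNA per cell cannot be told apart.

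All 9 genes were well expressed. Their mean over the 6 libraries ran from 30.7 FPKM (Rbm20) to 85.4 FPKM (Mbnl2), between the 77.5th and the 92.4th percentile of the 10359 features tested. In the PE group the order of mean FPKM from the top was Mbnl1 (97.5 ± 25.1, SD, n = 2), Rbm24 (80.1 ± 9.86), Mbnl2 (79.0 ± 14.1), Rbfox2 (77.7 ± 12.4), Celf1 (47.5 ± 10.96), Ptbp1 (43.3 ± 1.38), Celf2 (39.9 ± 1.27), Rbm20 (39.8 ± 2.56) and Ptbp2 (23.9 ± 10.4). The leading 4 overlapped each other in this group, and so did Celf1 with Ptbp1, Celf2 and Rbm20. In PE+TSA+shJIP1 the order was Mbnl2 (105.0 ± 3.59), Mbnl1 (83.6 ± 12.0), Rbfox2 (61.1 ± 4.45), Celf1 (58.6 ± 1.74), Rbm24 (54.8 ± 30.1), Ptbp2 (50.1 ± 1.85), Celf2 (45.7 ± 4.34), Ptbp1 (26.5 ± 3.42) and Rbm20 (23.1 ± 2.48). Ptbp2, which was lowest under PE, stood above Ptbp1 and Rbm20 there, and its libraries did not overlap those of either gene.

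**Figure D1:**
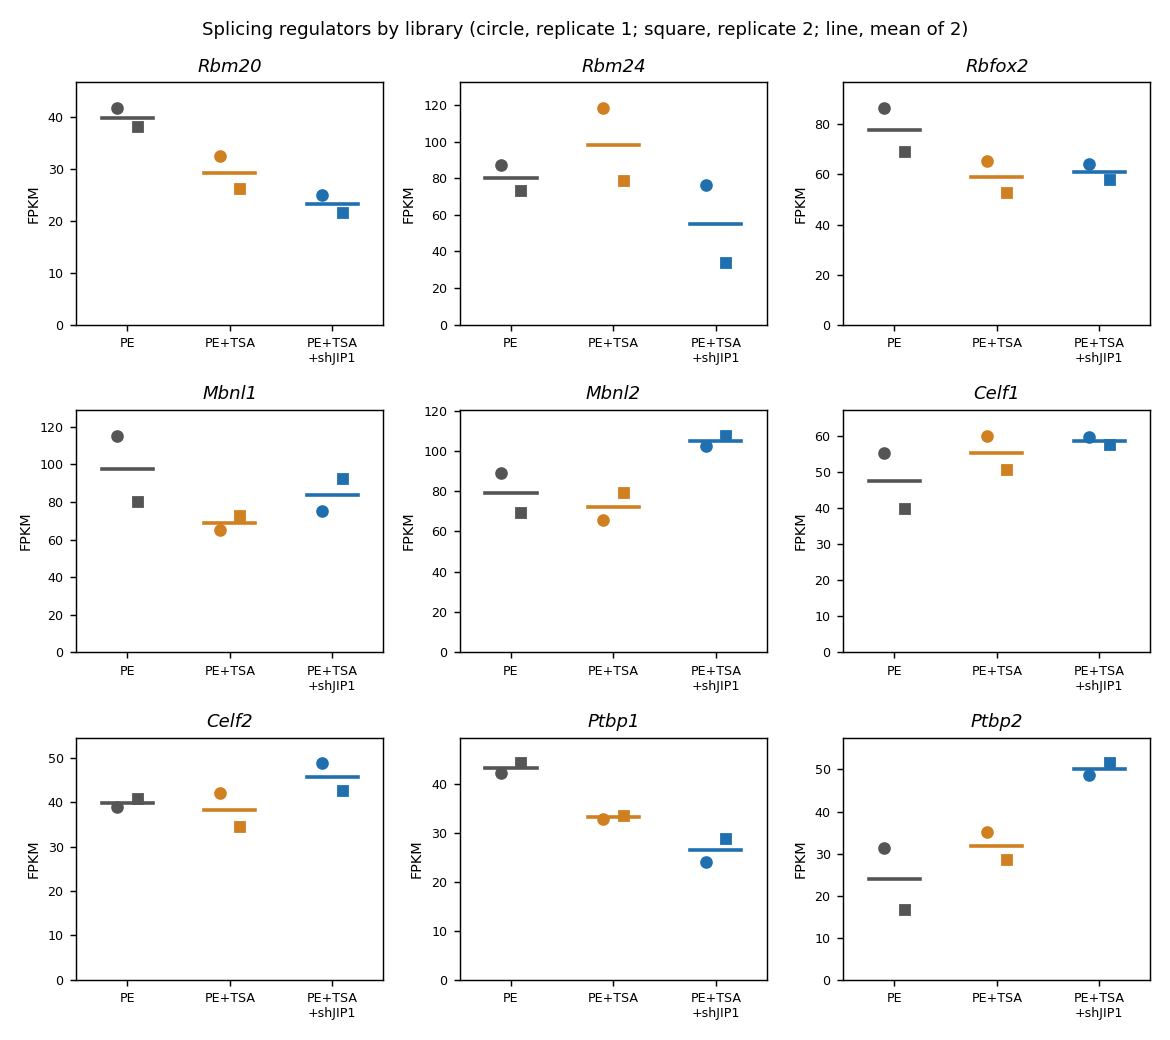
Level of each of the 9 genes in FPKM (vertical axes, each starting at 0) in the 3 groups (horizontal axis). Circles are replicate 1, squares replicate 2 and lines the mean of the 2. Rbm20 and Ptbp1 step down from group to group without overlap, Ptbp2 is highest in PE+TSA+shJIP1 at 48.8 and 51.4 FPKM, and the Rbm24 libraries of that group lie far apart at 76.1 and 33.5 FPKM.

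Differences between groups were tested on log2(FPKM + 1) with limma over the 10359 features that averaged 1 FPKM or more, and p-values were adjusted over all of them. A change on this scale slightly understates a fold change at these levels. None of the 9 genes passed an adjusted p of 0.05 in any of the 3 comparisons. With TSA, where 0.811% of all features passed, the smallest adjusted p of the 9 was 0.332. With the hairpin added to TSA, where 0.29% passed, it was 0.321. In PE+TSA+shJIP1 against PE, where 8.27% passed, it was 0.0757. At an unadjusted p under 0.05 the count was 0 of 9 with TSA (18.7% of all features), 1 with the hairpin (14.9%) and 3 (33.3%) in the last comparison (30.7% of all features). The groups did not overlap for 4 of the 9 with TSA (50.6% of all features), 7 with the hairpin (50%) and 7 with both (60.6%). By unadjusted p the 9 genes were close to the whole table in the last comparison. Their median absolute log2 change was 0.37, 0.32 and 0.42 in the 3 comparisons, against 0.40, 0.35 and 0.54 over all features tested. The 95% intervals reached 0.48 (Ptbp1) to 0.998 (Rbm24) to either side of each change on the log2 scale. Comparisons that use the same group share its libraries: PE+TSA enters the first and the second, and PE the first and the last.

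**Figure D2:**
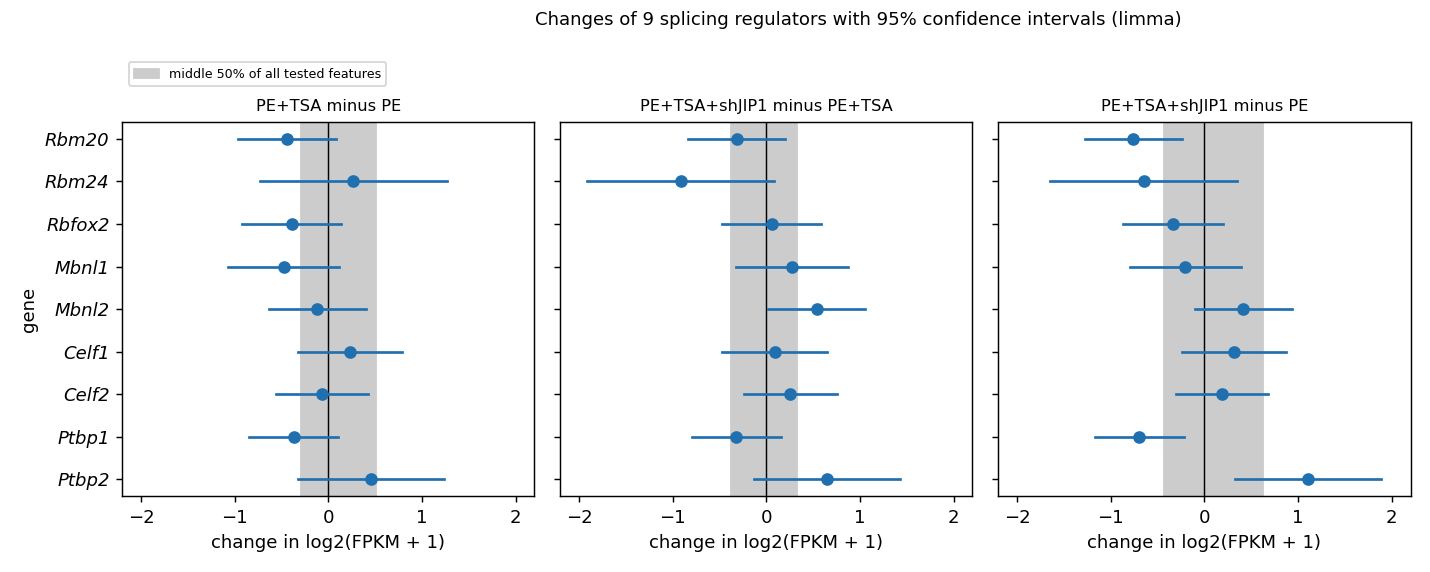
Change in log2(FPKM + 1) (horizontal axes) of each of the 9 genes (vertical axis) in the 3 comparisons, with points for the estimate and lines for its 95% confidence interval. The grey band holds the middle 50% of all features tested. The intervals of Rbm20, Ptbp1 and Ptbp2 lie to one side of 0 in PE+TSA+shJIP1 against PE, and their adjusted p-values there were 0.076, 0.0757 and 0.0799.

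Of the muscle regulators, Rbm20 was at 41.6 and 38.0 FPKM under PE, 32.4 and 26.0 under PE+TSA and 24.9 and 21.4 under PE+TSA+shJIP1. Each group lay below the one before it with no overlap. The log2 change was -0.44 ± 0.21 (SE) with TSA (limma adjusted p = 0.332), -0.32 ± 0.21 with the hairpin (adjusted p = 0.549) and -0.76 ± 0.21 with both (adjusted p = 0.076), the last a fold of 0.591 with a 95% interval of 0.412 to 0.848. Among all features tested, 5.69% had 3 groups in this descending order without overlap, and among the 9 genes Rbm20 and Ptbp1 did. The cardiomyocyte markers were lower beside Rbm20: 13 of 14 with TSA (median log2 change -1.07) and 14 of 14 with both (median -1.34), of which Myl3, Pln and Tnni3 passed with both and none without PE replicate 2. The median change of those markers was larger in size than that of Rbm20 in both comparisons. With the hairpin it was smaller, at -0.13 (10 of 14 lower) against -0.32 for Rbm20. Their part in the Rbm20 values was not tested.

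Rbm24, an RNA-binding protein needed for heart and skeletal muscle splicing, was at 87.1 and 73.2 FPKM under PE, 118 and 78.2 under PE+TSA, and 76.1 and 33.5 under PE+TSA+shJIP1. The libraries of the last group differed more for Rbm24 than for any other of the 9 genes, by 1.16 on the log2 scale, where the median gap of all features was 0.30. The log2 change was 0.27 ± 0.41 with TSA (limma adjusted p = 0.753), -0.91 ± 0.41 with the hairpin (adjusted p = 0.375) and -0.65 ± 0.41 with both (adjusted p = 0.329). Without PE+TSA+shJIP1 replicate 2 the change with the hairpin was -0.33, and without replicate 1 of that group it was -1.49. With both agents these values were -0.07 and -1.23.

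Rbfox2, a regulator of many heart and neuronal exons, was at 86.5 and 69.0 FPKM under PE, 65.6 and 52.4 under PE+TSA, and 64.2 and 57.9 under PE+TSA+shJIP1. Both groups with TSA lay below both PE libraries and overlapped each other. The change was -0.39 ± 0.22 with TSA (limma adjusted p = 0.385), 0.06 ± 0.22 with the hairpin (adjusted p = 0.931) and -0.34 ± 0.22 with both (adjusted p = 0.341).

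The muscleblind-like genes encode zinc-finger proteins that favour adult isoforms in muscle and are sequestered by repeat RNA in myotonic dystrophy. Mbnl1 was at 115 and 79.8 FPKM under PE, 65.2 and 72.3 under PE+TSA, and 75.1 and 92.1 under PE+TSA+shJIP1. Its PE+TSA libraries lay below the other 4 (log2 change -0.48 ± 0.25 with TSA, limma adjusted p = 0.354; 0.27 ± 0.25 with the hairpin, adjusted p = 0.661). Mbnl2 was at 89.0 and 69.0 FPKM under PE, 65.9 and 78.9 under PE+TSA, and 102 and 108 under PE+TSA+shJIP1. Its hairpin libraries lay above the other 4, and it had the only unadjusted p under 0.05 of the 9 genes with the hairpin (log2 change 0.54 ± 0.21, unadjusted p = 0.0446, limma adjusted p = 0.321). Against PE the change of Mbnl2 was 0.42 ± 0.21 (limma adjusted p = 0.239), and that of Mbnl1 was -0.20 ± 0.25 (adjusted p = 0.608).

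CELF1 and CELF2 bind GU-rich RNA and favour the fetal form of many exons that MBNL proteins oppose. Celf1 was at 55.2 and 39.7 FPKM under PE, 60.0 and 50.5 under PE+TSA, and 59.8 and 57.3 under PE+TSA+shJIP1. Celf2 was at 39.0 and 40.8, 42.1 and 34.3, and 48.7 and 42.6 FPKM in the same groups. These were the narrowest ranges of the 9 genes, with a highest library 1.51 times the lowest for Celf1 and 1.42 times for Celf2. The largest of their changes was 0.32 ± 0.23 for Celf1 in PE+TSA+shJIP1 against PE (limma adjusted p = 0.391), with a 95% interval of -0.24 to 0.87. Celf2 in that comparison differed by 0.19 ± 0.20 (limma adjusted p = 0.566; 95% interval -0.31 to 0.68).

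The polypyrimidine tract-binding paralogs stood on opposite sides of 0 in each comparison. Ptbp1 was at 42.3 and 44.3 FPKM under PE, 32.9 and 33.6 under PE+TSA, and 24.1 and 28.9 under PE+TSA+shJIP1. Its libraries of a group were close together, and each group lay below the one before it. The log2 change of Ptbp1 was -0.37 ± 0.20 with TSA (limma adjusted p = 0.364), -0.32 ± 0.20 with the hairpin (adjusted p = 0.503) and -0.69 ± 0.20 with both (adjusted p = 0.0757), the last a fold of 0.618 with a 95% interval of 0.445 to 0.859.

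Ptbp2 was at 31.3 and 16.5 FPKM under PE, 35.2 and 28.4 under PE+TSA, and 48.8 and 51.4 under PE+TSA+shJIP1. Both hairpin libraries lay above the other 4, while the PE and PE+TSA libraries overlapped. The log2 change of Ptbp2 was 0.46 ± 0.32 with TSA (limma adjusted p = 0.471), 0.65 ± 0.32 with the hairpin (adjusted p = 0.417) and 1.10 ± 0.32 with both (adjusted p = 0.0799), the last a fold of 2.15 with a 95% interval of 1.26 to 3.68. The low PE value came from PE replicate 2, the shallow library. Without it the change with both was 0.66 (adjusted p = 0.188) and that with TSA was 0.02, and without PE replicate 1 they were 1.54 (adjusted p = 0.0331, past the threshold) and 0.90 (adjusted p = 0.119).

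The ratio of Ptbp2 to Ptbp1 within a library does not depend on the scaling of that library. It was 0.739 and 0.373 under PE, 1.07 and 0.846 under PE+TSA, and 2.03 and 1.78 under PE+TSA+shJIP1. The groups did not overlap, and Ptbp2 exceeded Ptbp1 in both hairpin libraries and in neither PE library. With 2 libraries against 2 an exact two-sided permutation test cannot go below 0.333, so the ratios are a description. How often other pairs of genes ascend through the 3 groups without overlap was not counted. Among single features tested, 7.49% did. The difference between group means on the log2 scale was 0.86 with TSA, 0.997 with the hairpin and 1.86 with both. Without PE replicate 2 the first and the last were 0.37 and 1.36, and without PE replicate 1 they were 1.35 and 2.35.

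The ratio of Mbnl2 to Mbnl1 was 0.772 and 0.865 under PE, 1.01 and 1.09 under PE+TSA, and 1.36 and 1.17 under PE+TSA+shJIP1, also in ascending order without overlap but over a narrower range. The ratio of Celf2 to Celf1 was 0.706 and 1.03 under PE, 0.701 and 0.679 under PE+TSA, and 0.815 and 0.743 under PE+TSA+shJIP1. Both PE+TSA libraries lay below the other 4 for this pair, though close to PE replicate 1 (0.701 against 0.706), and the PE libraries enclosed both PE+TSA+shJIP1 libraries.

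**Figure D3:**
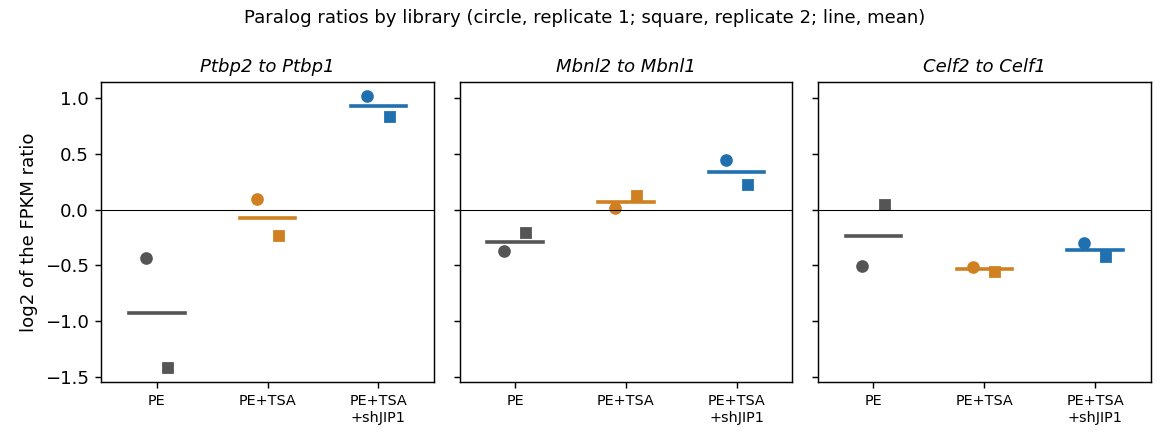
Log2 of the FPKM ratio of 3 pairs of paralogs (vertical axis, shared) in the 3 groups (horizontal axis), with circles for replicate 1, squares for replicate 2 and lines for the mean. Ptbp2 to Ptbp1 runs from -1.42 in PE replicate 2 to 1.02 in PE+TSA+shJIP1 replicate 1, and Celf2 to Celf1 is lowest in PE+TSA.

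The start regions of Ptbp1 and Ptbp2, the pair with opposite signs, are shown for context. The 250 bases upstream of the annotated start were taken from RefSeq (rat assembly GRCr8, minus strand for both genes), with capitals marking CCAAT boxes and GC boxes (GGGCGG) read on either strand:
Ptbp1, chr7:10502958-10503207: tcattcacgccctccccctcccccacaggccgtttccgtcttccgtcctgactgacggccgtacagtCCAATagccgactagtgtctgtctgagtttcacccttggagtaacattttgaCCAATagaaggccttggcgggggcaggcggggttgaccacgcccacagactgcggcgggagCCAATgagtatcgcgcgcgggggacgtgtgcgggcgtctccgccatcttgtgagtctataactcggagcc
Ptbp2, chr2:210558278-210558527: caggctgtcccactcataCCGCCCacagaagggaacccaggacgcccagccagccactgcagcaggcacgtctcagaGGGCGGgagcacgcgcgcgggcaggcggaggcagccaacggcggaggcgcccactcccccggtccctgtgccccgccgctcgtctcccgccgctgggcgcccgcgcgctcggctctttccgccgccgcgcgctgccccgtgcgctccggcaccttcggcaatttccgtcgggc
The Ptbp1 region held CCAAT at 3 places, 183, 131 and 70 bases before the start, and no GGGCGG. The Ptbp2 region held GGGCGG at 2 places and no CCAAT. Of 33469 such rat regions of equal length, 34.0% held CCAAT and 30.5% held GGGCGG. The Ptbp2 region had a GC content of 75.6% and the Ptbp1 region 61.2%, against a median of 51.2%. Entries were found for 7 of the 10 genes and none for Rbm20, Celf2 and Rbfox2. A match is only a run of letters, and neither region was measured in these libraries.

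The features whose values over the 6 libraries lay nearest to those of Rbm20 and Ptbp1, the members with the smallest p over the 3 groups, were taken by Euclidean distance of centred log2(FPKM + 1) values. For Rbm20 they were Kctd1 (distance 0.10), Fam32a (0.13) and Dag1 (0.16), the last encoding dystroglycan, a link between the muscle membrane and the matrix. For Ptbp1 they included Mrps2, a mitochondrial ribosomal protein (0.18), and Carhsp1 (0.18). These are among the closest of 10359 profiles over only 6 libraries.

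Other splicing regulators were read from lists written with the choice of these genes. Over all features tested, the share with an unadjusted limma p under 0.05 was 18.7% with TSA, 14.9% with the hairpin and 30.7% with both. Of 14 SR proteins and relatives tested, which promote exon inclusion as a rule, none passed in any comparison, and 1, 3 and 4 had an unadjusted limma p under 0.05 in the 3 comparisons (TSA, hairpin, both). Their median log2 change was -0.13, -0.03 and -0.12, and over all 16 features of the list with no filter -0.093, 0.0088 and -0.014. Those with the smallest p over the 3 groups were Srsf7, Srsf4 and Srrm1, all core splicing factors. Srsf7 went from 30.4 and 46.9 FPKM under PE to 23.7 and 18.4 under PE+TSA+shJIP1 (log2 change -0.83 ± 0.27, limma adjusted p = 0.106). Srsf4 and Srrm1 were lower in both hairpin libraries than in the other 4, with Srsf4 at 18.8 and 15.3 FPKM there (limma adjusted p = 0.125 against PE) and Srrm1 at 85.1 and 91.6 FPKM (adjusted p = 0.127).

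Of 19 hnRNP proteins and partners tested, none passed with TSA or with the hairpin, at unadjusted limma counts of 4 and 2 (2 with both). Raver2, which reached the mean of 1 FPKM only through the groups with TSA, rose in PE+TSA+shJIP1 against PE. Raver2, a protein that binds PTB proteins, had 0.861 FPKM in the deeper PE library and a listed 0 in the shallow one, with 5.17 and 5.16 under PE+TSA and 4.79 and 7.06 under PE+TSA+shJIP1 (log2 change with both 2.32 ± 0.42, limma adjusted p = 0.03; with TSA 2.18 ± 0.42, adjusted p = 0.0849). Its relative Raver1 was at 26.0 and 18.3 FPKM under PE, and at 15.4 and 18.0 under PE+TSA+shJIP1 (log2 change -0.37 ± 0.25, adjusted p = 0.361). Hnrnpc was low under PE+TSA, at 1.91 and 1.89 FPKM against 5.57 and 5.79 under PE and 4.81 and 5.19 under PE+TSA+shJIP1 (limma adjusted p = 0.125 with TSA), and Hnrnpa3 was highest there, at 30.7 and 30.2 FPKM (adjusted p = 0.173 with the hairpin). The third PTB paralog, Ptbp3, was at 12.3 and 14.5 FPKM under PE, 13.4 and 11.3 under PE+TSA, and 21.7 and 14.4 under PE+TSA+shJIP1, and its PE and PE+TSA+shJIP1 libraries overlapped.

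Of 24 other tissue-restricted splicing regulators tested, none passed with TSA or with the hairpin, at unadjusted limma counts of 5 and 5 (10 with both). With both, Srpk1 rose and Rbpms2, Rbm38 and Khdrbs2 fell. Srpk1, a kinase that phosphorylates SR proteins, was at 14.6 and 16.1 FPKM under PE, 13.7 and 11.03 under PE+TSA, and 34.7 and 33.7 under PE+TSA+shJIP1 (log2 change 1.11 ± 0.22 against PE, limma adjusted p = 0.0359; 1.41 ± 0.22 with the hairpin, adjusted p = 0.0804). Rbpms2, an RNA-binding protein of heart and smooth muscle, was at 150 and 126 FPKM under PE, 92.5 and 88.3 under PE+TSA, and 46.1 and 39.6 under PE+TSA+shJIP1 (-1.67 ± 0.20 against PE, limma adjusted p = 0.0143). Rbm38, a regulator of muscle differentiation, was at 140 and 121 FPKM under PE and 48.9 and 61.0 under PE+TSA+shJIP1 (-1.23 ± 0.23, limma adjusted p = 0.0329). Khdrbs2 was at 4.74 and 7.96 FPKM under PE and 0.901 and 0.133 under PE+TSA+shJIP1 (-2.29 ± 0.43, limma adjusted p = 0.0329).

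Transcripts that RBM20 is known to splice were read as totals per gene, which do not show their isoforms. Of 20 such genes 16 matched, in 17 features, and Ttn, which encodes titin, had no row. Ryr2 is also on the list of cardiomyocyte markers. Of 17 features tested, 14 were lower with TSA, 11 with the hairpin and 14 with both (median log2 change -0.34, -0.22 and -0.80, against 0.10, -0.003 and 0.10 over all features). Enah, an actin regulator, fell with TSA, with 474 and 416 FPKM against 166 and 159 (log2 change -1.45 ± 0.20, limma adjusted p = 0.0406), and was at 297 and 336 under PE+TSA+shJIP1. Sh3kbp1, an adaptor of receptor endocytosis, fell in PE+TSA+shJIP1 against PE from 293 and 178 FPKM to 39.7 and 21.6 (-2.92 ± 0.56, limma adjusted p = 0.0337). Camk2d, a calcium-dependent kinase and a classic RBM20 target, was at 33.7 and 40.5 FPKM under PE, 48.0 and 46.5 under PE+TSA, and 26.6 and 25.03 under PE+TSA+shJIP1, and passed in none. None passed with the hairpin. The unadjusted limma counts were 3 of 17 with TSA, 6 with the hairpin and 11 with both (18.7%, 14.9% and 30.7% of all features). The genes called here and in the 2 lists before were Raver2, Srpk1, Rbpms2, Rbm38, Khdrbs2, Enah and Sh3kbp1. Their calls were lost without PE replicate 2, the shallow library, and also without either PE+TSA+shJIP1 library. Each of these fits leaves 1 library in a group, and the loss was not particular to the shallow library. All 7 kept their direction in each. The summed cardiomyocyte markers given above were also lower in both groups with TSA, and their part in this list was not tested.

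Relatives of these genes in the same families, read at low levels, are named here after their values were seen, so their values are a description. Celf3 had 0.222 and 0 FPKM under PE, the 0 in the shallow library, with 2.03 and 2.96 under PE+TSA and 2.12 and 2.43 under PE+TSA+shJIP1. Celf5 was at 0.161 and 0 FPKM under PE, 1.503 and 3.04 under PE+TSA, and 0.803 and 3.27 under PE+TSA+shJIP1. Srrm3, the closest relative of Srrm4, was at 0.251 and 0 FPKM under PE, 1.05 and 1.02 under PE+TSA, and 1.28 and 1.26 under PE+TSA+shJIP1. These 3 were lower in both PE libraries than in the other 4, and so were Celf4 and Rbfox1, given next, by a narrow margin. Over all features tested, PE did not overlap PE+TSA in 50.6% or PE+TSA+shJIP1 in 60.6%, in either direction. Celf3, Celf4 and Celf5 reached the mean of 1 FPKM only through the groups with TSA. Celf3 and Celf5 passed in no comparison (log2 change with TSA 1.65 ± 0.40, limma adjusted p = 0.125, and 1.56 ± 0.56, adjusted p = 0.217). With both, their limma adjusted p was 0.0614 and 0.161. Celf4 was at 0.853 and 1.076 FPKM under PE, 1.14 and 2.997 under PE+TSA, and 1.92 and 2.37 under PE+TSA+shJIP1 (log2 change 0.58 ± 0.44 with TSA, limma adjusted p = 0.512). Rbfox1 was at 0.256 and 0 FPKM under PE, 0.316 and 0.543 under PE+TSA, and 0.614 and 1.64 under PE+TSA+shJIP1. Mbnl3 was at 0.511 and 0, 0.382 and 1.69, and 0.824 and 0.646 FPKM in the same groups, which overlapped. A value of 0 in the shallow PE replicate 2 says little.

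Ptbp2 and Celf2 are also abundant in neurons, so the neuronal background was read. A list of the repressor REST, its corepressors and neuronal genes it silences elsewhere had 23 features in the table, whose summed level was 63.5 and 63.9 FPKM under PE, 577 and 1094 under PE+TSA, and 468 and 908 under PE+TSA+shJIP1. Over all 23, with no filter, 18 were higher and 4 lower with TSA (median log2 change 0.95), 7 higher and 15 lower with the hairpin (median -0.23), and 18 higher and 3 lower with both (median 0.82). Kif5a, Scg5, Snap25 and Vgf passed in both comparisons with PE, Syn1 with TSA and Syp with both agents, all upward, and no feature of the list passed with the hairpin, at an unadjusted limma count of 3. Of the 14 features tested, 9 had a mean under 1 FPKM in PE, the 6 called genes among them, and so reached the filter only through the groups with TSA. The filter favours upward calls of such genes, and their count is no measure of the list. Without PE replicate 2, 2 features passed with TSA and 3 with both. Rest itself was at 23.4 and 22.4 FPKM under PE, 23.1 and 16.5 under PE+TSA, and 32.7 and 22.5 under PE+TSA+shJIP1, and its groups overlapped.

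Of 14 neuron markers 13 matched, 3 of them also in the REST list, with 14 features in the table. Their summed level was 12.4 and 7.35 FPKM under PE, 91.8 and 95.1 under PE+TSA, and 44.8 and 58.8 under PE+TSA+shJIP1. Over all 14 features, 13 were higher and none lower with TSA (median log2 change 1.45), 2 higher and 11 lower with the hairpin (median -0.39), and 12 higher and 1 lower with both (median 0.71). Snap25 made up much of the sum, at 0.22 and 0 FPKM under PE, 39.3 and 49.9 under PE+TSA, and 20.05 and 21.8 under PE+TSA+shJIP1, and a listing of Syt1 added 22.95 in PE+TSA replicate 1 and 0 in replicate 2. Stmn2 was at 0 in both PE libraries and at 1.81 to 2.96 FPKM in the other 4, while Th was at 0 in all 6 libraries and Dcx did not exceed 0.0801 FPKM. Snap25 passed in both comparisons with PE and the other listing of Syt1 with both agents. Both are among the 8 of the 9 features tested that were under a mean of 1 FPKM in PE. These 8 reached the filter only through the groups with TSA, which favours upward calls, so the calls are no measure of the list. The part of neurons in the Ptbp2 and Celf2 values was not tested.

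**Figure D4:**
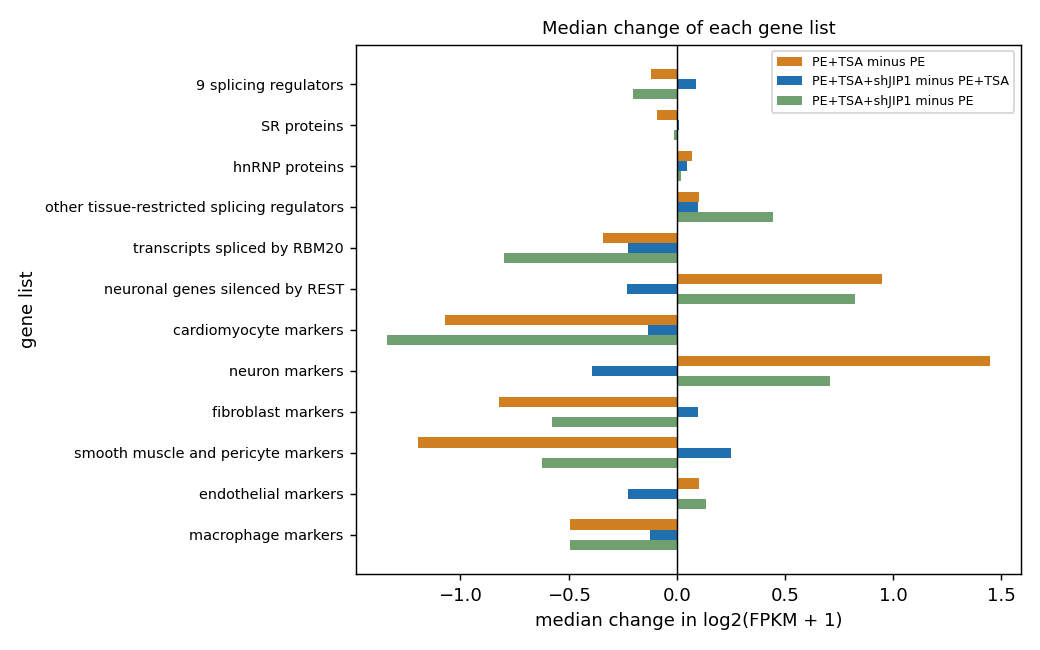
Median change in log2(FPKM + 1) (horizontal axis) of all features of each gene list in the table, with no filter on low values (vertical axis), in the 3 comparisons (colours). The 9 splicing regulators lie between -0.20 and 0.09, the cardiomyocyte markers at -1.07, -0.13 and -1.34, and the list of REST, its corepressors and neuronal genes at 0.95, -0.23 and 0.82.

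Lists of markers named for other cells differed in part between the groups. Smooth muscle and pericyte markers summed to 2542 and 2116 FPKM under PE, 673 and 471 under PE+TSA, and 1218 and 1164 under PE+TSA+shJIP1, and fibroblast markers to 1506 and 2391, 1010 and 1534, and 1237 and 1517. Des made up a large part of the smooth muscle sum, at 860 and 747 FPKM under PE, 254 and 190 under PE+TSA, and 688 and 647 under PE+TSA+shJIP1. Whether Des and the other listed genes came from the myocytes themselves was not tested. Endothelial markers summed to 29.5 to 77.4 FPKM and macrophage markers to 9.62 to 24.0 FPKM over the 6 libraries. Of the tested smooth muscle markers 2 of 9 fell with TSA (Acta2 and Des) and 3 with both (Acta2, Cspg4 and Myh11), and 1 of 9 fibroblast markers, Dcn, fell with both. None of these passed without PE replicate 2. No endothelial or macrophage marker passed, at an unadjusted limma count of 0 for both lists with TSA, 1 and 0 with the hairpin, and 1 and 1 with both. The part of these cells in the values of the 9 genes was not tested.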

How the data were processed

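The 6 libraries share a single table of FPKM, deposited by the authors. Per the submitters' processing notes, Cufflinks was among the tools and rn6 the build; neither has a version or role there. Column-purified RNA went into Illumina libraries, per the labels' protocols. How reads were aligned, annotated, filtered or assigned to strand is not given in the sources used here. Reads shared by paralogs or overlapping genes can therefore not be told apart. Each column was matched to a sample by its title.

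Features averaging 1 FPKM or more (10359 of 13843) were fitted on log2(FPKM + 1) with limma 3.58.1 in R 4.3.3, with 1 mean per group and a prior variance that follows the mean (3 residual and 3.27 prior degrees of freedom). Two-sided p-values were adjusted per comparison (Benjamini-Hochberg). The fit was also run on simulated data with the same spread in all 6 libraries, which cannot show how it behaves with a shallow library. Relative depth came from the most frequent ratio to PE replicate 1 over features below 0.3 FPKM there. It was held by 28 to 50 features in each other library. The limit was wider in those libraries and widest in PE replicate 2, where 30 of 216 features held the ratio. For PE replicate 2, picked by its count of 0 values, only shallower depths were searched, so a similar depth could not be returned. Absolute depth is unknown, so no counting interval is given.

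The members and lists were chosen with earlier results of these data known. Genes were named by a rule: the members, Mapk8ip1, every called gene of the other lists, the 3 with the smallest p of each splicing list, and the 3 profiles nearest to 2 members, of which 1 is not reported here. Sequences came from RefSeq (GRCr8) and values from rn6, so coordinates apply to the sequences only. Alternatives were a pseudocount of 0.1, no filter, a filter of 5 FPKM, trimmed-mean scaling, quantile normalization, a replicate block and leaving out each library. For the paralog ratios and the genes called in the other lists, alternatives were added after the data were seen.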

Additional observations from a re-analysis of the deposited data

How the results depend on the processing

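None of the 9 genes passed with a pseudocount of 0.1, no filter, a filter of 5 FPKM, trimmed-mean scaling, quantile normalization or the replicate block. All of their changes kept their direction in these settings (162 of 162). The filters and the block leave a difference of group means unchanged, so their part of this count was fixed in advance. Only the pseudocount, trimmed-mean scaling and quantile normalization could turn a direction. Leaving out a library, 0 of the 9 passed with TSA or the hairpin, and 0 to 1 with both (Ptbp2 without PE replicate 1). Of the 162 changes with a library left out, 9 turned their sign, all small. This count includes changes that could not turn, because the library left out was in neither group compared. With TSA, Mbnl2 was at 0.062 when PE replicate 1 was left out and 0.0095 without PE+TSA replicate 1 (lowest of its range -0.30), Celf1 at -0.0039 without PE replicate 2 (highest 0.46), Rbm24 at -0.029 without PE+TSA replicate 1 (highest 0.56), and Celf2 at 0.076 without PE+TSA replicate 2 (lowest -0.21). With the hairpin, Celf1 was at -0.035 and Rbfox2 at -0.10 without PE+TSA replicate 2, and Rbfox2 at -0.02 without PE+TSA+shJIP1 replicate 1 (highest 0.21 and 0.21). With both, Mbnl1 was at 0.059 without PE replicate 1 (lowest -0.47).

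Over all features, 84, 30 and 857 passed (TSA, hairpin, both). Without a filter these counts were 3, 0 and 374. With the replicate number as a block they were 28, 18 and 1063. The same-numbered libraries were not paired by the labels, and their differences between replicates correlated across features at 0.04 to 0.12. Even so, the summed cardiomyocyte markers were higher in replicate 1 of every group and the summed fibroblast markers in replicate 2. Whether same-numbered libraries shared a source was not tested. Without 1 library the counts ran from 6 to 250 with TSA, 8 to 19 with the hairpin and 18 to 984 with both. The median change of all features with TSA was 0.10, and -0.02 after quantile normalization.

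Leaving out 1 library, the log2 ratio difference of Ptbp2 to Ptbp1 ran from 0.37 to 1.35 with TSA and from 1.36 to 2.35 with both, and that of Celf2 to Celf1 from -0.57 to -0.033 and from -0.40 to 0.14. For Ptbp2 to Ptbp1 the lower ends came without PE replicate 2 and the upper ends without PE replicate 1. For Celf2 to Celf1 it was the reverse. All 7 genes called in the other splicing lists kept their direction in every alternative that could test them, and their calls held in 4 (Enah, Khdrbs2, Raver2) to 9 (Rbpms2) of the 11 or 12 alternatives. The direction of these 7 could not turn with a filter, the block or the loss of a library outside the comparison. The depth of PE replicate 2 limits every comparison with PE.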
